A study of Mus musculus with 59 samples.

Results

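The 8 libraries with the highest level of 3 striatal receptor transcripts, out of 59 libraries of mouse prefrontal cortex, were set against the 30 libraries with the lowest. Each library was scored by the mean of log2(normalized count + 1) of Drd1 and Drd2, which encode dopamine receptors, and Adora2a, which encodes an adenosine receptor. A normalized count is the estimated number of reads of a gene after the authors scaled the libraries to each other. The libraries were chosen by these measured values, so the split between them is described by levels, differences, spread and overlap, with no test. All genes described below are other than the 3 that made the score. In bulk tissue, fewer cells of a type and less RNA per cell cannot be told apart.

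Polyadenylated RNA was taken at postnatal day 25 from the prefrontal cortex of mice of the C57BL/6J strain. The mice were labelled as heterozygous (HT) for the Chd8-S62X allele or as wild type (WT), as female or male, and as treated with vehicle, fluoxetine or lithium. Fluoxetine is a blocker of serotonin reuptake and lithium a mood stabilizer, and exposure ran from day 3 to day 24 by way of the nursing mother. These labels form 12 groups with 5 libraries each, apart from the 4 libraries of HT females given fluoxetine, and they name neither litters nor animals, so the p-values below measure the spread between libraries.

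Chd8, the chromatin remodeller targeted in these mice, went against its label. The 30 WT-labelled libraries held 2828 to 4229 normalized counts of it and the 29 HT-labelled ones 5115 to 6626, so genotype is given as labelled. Sums of normalized counts ran from 30.3 to 33.7 M per library, with medians of 32.6 M in the 8 highest-scoring libraries and 32.7 M in the 30 lowest-scoring ones. Slc17a7, the vesicular glutamate transporter that defines cortical excitatory neurons, was abundant in both sets: it ran from 44425 to 53224 normalized counts in the 8 libraries and from 33642 to 57063 in the 30.

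The striatum lies beneath the frontal cortex, and nearly all of its neurons are inhibitory spiny projection neurons. They fall into a direct pathway class, which carries Drd1, tachykinin and dynorphin, and an indirect pathway class, which carries Drd2, Adora2a and enkephalin. Both classes share a cyclic AMP signalling machinery built around the G protein subunit Gnal, the cyclase Adcy5, the phosphodiesterases Pde10a and Pde1b and the phosphatase inhibitor DARPP-32, the product of Ppp1r1b.

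The starts of 3 of the genes that separated the sets are shown because these genes span the roles described below: the G protein regulator Rgs9, the indirect pathway receptor Gpr6 and the retinoid X receptor Rxrg. Each run holds the 250 bases before the transcript start in RefSeq on GRCm38.p6, 5′ to 3′ on the strand of the gene, and capitals mark the cyclic AMP response element TGACGTCA where it was found.
Rgs9 at chr11:109298182-109298431, minus strand: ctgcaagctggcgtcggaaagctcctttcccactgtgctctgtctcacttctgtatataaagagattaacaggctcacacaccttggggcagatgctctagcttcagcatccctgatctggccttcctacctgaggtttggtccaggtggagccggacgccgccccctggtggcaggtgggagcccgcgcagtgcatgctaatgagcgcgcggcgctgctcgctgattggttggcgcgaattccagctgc
Gpr6 at chr10:41072291-41072540, minus strand: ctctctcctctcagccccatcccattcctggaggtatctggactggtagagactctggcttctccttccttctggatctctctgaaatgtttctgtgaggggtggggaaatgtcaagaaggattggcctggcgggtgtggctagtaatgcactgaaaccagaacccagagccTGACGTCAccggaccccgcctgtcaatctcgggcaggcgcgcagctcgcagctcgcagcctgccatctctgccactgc
Rxrg at chr1:167598112-167598361, plus strand: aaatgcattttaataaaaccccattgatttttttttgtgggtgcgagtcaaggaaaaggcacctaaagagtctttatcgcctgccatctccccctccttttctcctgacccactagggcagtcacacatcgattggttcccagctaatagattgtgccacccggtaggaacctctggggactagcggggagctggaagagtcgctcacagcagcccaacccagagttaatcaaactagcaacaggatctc
Of the 27 genes that were higher in the 8 libraries without overlap, 17 had a promoter in the RefSeq table. The response element TGACGTCA, which reads the same on both strands, was in 1 of the 17 and in 1.55% of 32851 promoters of the same length. Its shorter form TGACG, searched on both strands and contained in the full element, was in 2 of the 17 and in 17.8% of all promoters. The retinoid receptor sequence AGGTCA was in 1 of the 17 and in 14.02% of all promoters, on either strand. A gene of the 17 counted where any of its promoters held the sequence. The shares of all promoters count each promoter, so the units differ. A match of letters is a description of the window only.

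The highest score was 10.45, in WT lithium male replicate 2, with 1637 normalized counts of Drd1, 939.9 of Drd2 and 1770.5 of Adora2a. HT vehicle female replicate 3 followed at 9.42 and WT vehicle female replicate 5 at 8.94. HT lithium male replicate 4 scored 8.66, HT fluoxetine female replicate 2 scored 8.65, HT lithium female replicate 5 scored 8.56, HT lithium male replicate 1 scored 8.502 and HT fluoxetine female replicate 1 scored 8.33. They came from 6 of the 12 label groups, and HT lithium males and HT fluoxetine females each gave 2 of them.

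The cut at 8 libraries did not fall in a gap. Just inside it stood the score of 8.33, and just outside it WT fluoxetine female replicate 1 at 8.10, followed by WT lithium female replicate 1 at 8.05. At the other cut, WT vehicle male replicate 5 was the highest of the 30 at 6.52 and HT vehicle female replicate 1 the lowest of the 21 between at 6.54.

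**Figure D1:**
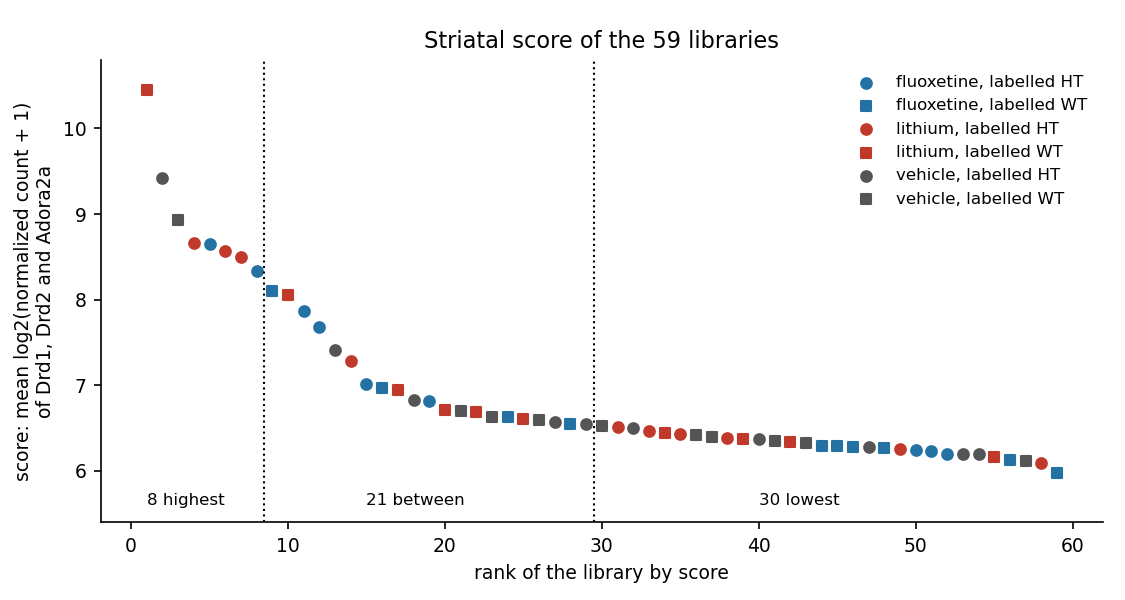
Score of each of the 59 libraries (y axis, mean log2(normalized count + 1) of Drd1, Drd2 and Adora2a) against its rank (x axis), with colour for treatment and shape for labelled genotype; dotted lines mark the cuts. The score falls from 10.45 to 8.33 over the 8 highest, passes both cuts without a gap and ends at 5.97.

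Of the 8 libraries, 6 were labelled HT and 2 WT, 5 were female and 3 male, and 4 had received lithium, 2 fluoxetine and 2 vehicle. Among the 30 there were 14 HT and 16 WT, 16 females and 14 males, and 10, 9 and 11 libraries of lithium, fluoxetine and vehicle. The labels were not used to choose the libraries, so the mean score could be compared between them with two-sided permutation tests, adjusted over 4 comparisons by Benjamini-Hochberg. HT-labelled libraries scored 7.05 ± 0.974 (SD, n = 29) and WT-labelled ones 6.77 ± 0.944 (SD, n = 30), a difference of 0.28 (permutation p = 0.274, adjusted 0.638). Lithium libraries scored 7.09 ± 1.15 (SD, n = 20) against 6.76 ± 0.876 (SD, n = 20) under vehicle, a difference of 0.33 (permutation p = 0.319, adjusted 0.638). Fluoxetine against vehicle gave 0.10 (permutation p = 0.710, adjusted 0.890) and females against males 0.04 (permutation p = 0.890, adjusted 0.890). None of the 4 differences exceeded the spread between libraries.

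Most of the transcriptome did not follow the score. Of 16839 genes with a mean of at least 10 normalized counts, the 3 of the score were set aside, and the mean log2 level of 66.8% of the genes differed by less than 0.1 between the 8 and the 30 libraries. The median difference over all genes was -0.0026. In 27 of 16836 genes (0.16%) all 8 libraries lay above all 30, and in 1 gene (0.00594%) all 8 lay below. Among the 27, Six3 and Sh3rf2 reached a mean of at least 10 only through the 8 libraries. A mean difference of at least 1 on the log2 scale, which is a doubling, was found upward in 52 genes (0.309%) and downward in 34 (0.202%).

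The homeobox gene Six3, a regulator of indirect pathway neuron development, had the widest separation. Its 8 high-scoring libraries held from 40.2 to 277 normalized counts with a median of 81.6, and the 30 low-scoring ones from 0 to 6.85 with a median of 1.12. Six3 was thus at or near 0 in the low-scoring libraries, and its log2 difference of 5.52 depends on the pseudocount of 1 (6.07 with 0.5). Its mean was 19.2 over all 59 libraries, 11.1 in the 21 between and 1.52 in the 30. Six3 passed the filter on a mean of at least 10 only through the 8 libraries, so its place among the separated genes depends on them. In the 21 libraries between, it ran from 0 to 48.7, and 10 of them lay above all 30. The gene lies on chromosome 17 between positions 85613608 and 85629302 of GRCm38.

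Shared signalling genes of the projection neurons were higher as a group. All 17 genes of this list had a higher mean level in the 8 libraries, 7 of them without overlap, with a median difference of 0.61. The mean level of the list was above all 30 low-scoring libraries in 8 of 8 high-scoring ones. Rgs9, which shortens G protein signals in these neurons, ran from 918 to 3683 normalized counts (median 1261) in the 8 libraries and from 342 to 462 (median 399.7) in the 30, a log2 difference of 1.79. Its low-scoring libraries were tightly grouped, and the lowest of the 8 stood above all 51 other libraries, of which the highest held 820.4.

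Ppp1r1b, the DARPP-32 gene, ran from 2773 to 8692 normalized counts in the 8 libraries (median 3511) and from 828.9 to 2216 in the 30 (median 1343). The difference was 1.54 on the log2 scale. Scn4b, a sodium channel subunit, spanned 2166 to 7316 normalized counts in the 8 libraries (median 2915) and 447 to 2125 in the 30 (median 1131), a difference of 1.62. The cyclase Adcy5 differed by 0.61, the phosphodiesterases Pde1b by 0.64 and Pde7b by 0.56, each without overlap. The low-scoring libraries varied little in Pde1b, with an SD of 0.057 on the log2 scale over the 30.

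The remaining 10 signalling genes overlapped between the sets. Pde10a, the main striatal phosphodiesterase, came closest, with 3289 to 10121 normalized counts in the 8 libraries and 1823 to 3356 in the 30, a difference of 0.98. Rasd2, a small G protein also called Rhes, differed by 0.78, the G protein gamma subunit Gng7 by 0.68 and Gnal, the alpha subunit that couples dopamine receptors to the cyclase, by 0.44. The smallest differences of the list included those of Arpp21, Dgkb and Kcnip2: Arpp21 differed by 0.18, the diacylglycerol kinase Dgkb by 0.07 and the potassium channel subunit Kcnip2 by 0.02.

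**Figure D2:**
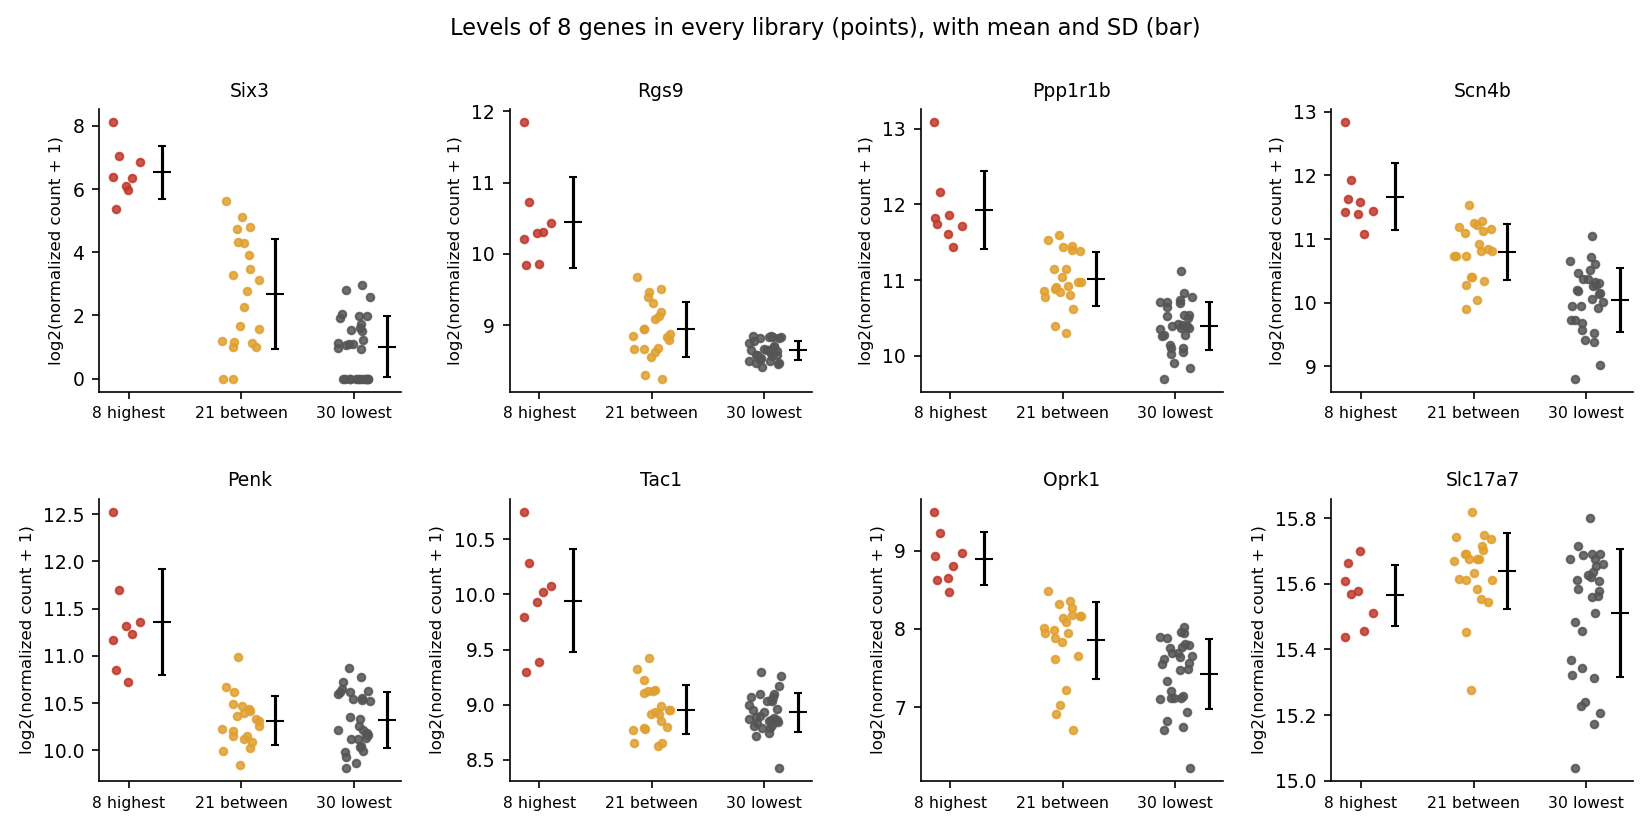
Level of 8 genes in every library (y axes, log2(normalized count + 1)), split into the 8 highest-scoring, the 21 between and the 30 lowest-scoring libraries; points are libraries and bars the mean with its SD. The first 4 genes and Oprk1 separate the 8 from the 30 without overlap, Penk and Tac1 overlap at the edge, and Slc17a7 does not separate.

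Neuropeptides of both projection classes were higher. Penk, the enkephalin precursor of the indirect pathway, spanned 1693 to 5898 normalized counts in the 8 libraries (median 2477) and 896 to 1871 in the 30 (median 1209), a difference of 1.04. Tac1, the substance P precursor of the direct pathway, spanned 627 to 1723 (median 1008) against 342 to 629.7 (median 474), a difference of 1.01. For Penk 6 of the 8 libraries, and for Tac1 7, lay above all 30. Pdyn, the dynorphin precursor, differed by only 0.29 and overlapped widely, with 872 to 1455 normalized counts in the 8 libraries against 585 to 1069.

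The direct pathway list, which holds Tac1 and Pdyn as well, had a median difference of 0.29. Of its 7 measured genes 5 were above 0 and none separated without overlap. Slc35d3, a sugar transporter that controls the traffic of the D1 receptor, differed by 1.16, and the muscarinic receptor Chrm4 by 0.36. The transcription factors Ebf1 and Eya1 differed by -0.07 and -0.22. Isl1, a transcription factor of direct pathway neurons, was below the filter on low values and had 9.85 to 97.2 normalized counts in the 8 libraries and 0 to 8.72 in the 30.

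In the indirect pathway list 5 of 6 members were measured, Gpr52 was not matched to an identifier, and the median difference was 0.12. Gpr6, an orphan receptor of this class whose promoter is shown above, separated the sets with 88.6 to 359 normalized counts in the 8 libraries against 18.9 to 65.0, a difference of 1.78. Sp9, a transcription factor needed for indirect pathway neurons and also present in migrating neuroblasts, differed by -0.45, the guanylate cyclase subunit Gucy1a1 by -0.06 and the kainate receptor Grik3 by 0.12.

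Transcription factors of the striatum went both ways. Of 14 genes, 11 were above 0 and 3 separated the sets, with a median of 0.26. Beside Six3, which passed the filter only through the 8 libraries, these were the retinoic acid receptor Rarb and the retinoid X receptor Rxrg. Rarb ran from 362 to 1070 normalized counts in the 8 libraries and from 188 to 265 in the 30, a difference of 1.24, and Rxrg from 322 to 687 against 161 to 256, a difference of 0.88. Foxp2 differed by 0.73 and Zfp503 by 0.79 with overlap, whereas Meis2 differed by -0.30 and Dlx5, shared with cortical interneuron precursors, by -0.18. The wider list of retinoid signalling genes, which holds Rarb and Rxrg as well, had a median of 0.05 over 12 genes, and its other 10 genes overlapped between the sets.

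The patch list, of genes enriched in the striosome compartment, had a median of 0.20 over 6 genes with none separated: the mu opioid receptor Oprm1 differed by 0.57 and Tshz1 by -0.53. Among 16 measured receptors for neuromodulators the median was 0.27. Oprk1, the kappa opioid receptor, separated the sets with 354 to 721 normalized counts in the 8 libraries (median 466.2) and 73.7 to 260.02 in the 30 (median 188), a difference of 1.47. The serotonin receptor Htr4 differed by 1.02, while the cortical serotonin receptor Htr2a differed by -0.01. Drd3, a dopamine receptor typical of the ventral striatum, was below the filter on low values, with 2.22 to 39.7 normalized counts in the 8 libraries and 0 to 7.86 in the 30.

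Over the 5 striatal lists together (shared signalling, both pathways, transcription factors and patch), 49 of 51 genes were measured, 40 were above 0, 9 below, and 11 separated the sets, with a median difference of 0.35. The striatal lists hold 11 of the 27 separated genes, and 13 of the 27 are in none of the 30 lists. Among the latter, and named after their values were seen because their levels are low, were Serpina9, a serine protease inhibitor, with 51.05 to 378 normalized counts against 1.12 to 23.9, Sh3rf2 with a difference of 3.47, and Cd4, the T cell coreceptor, with 63.7 to 287 against 6.24 to 40.8. Gm49702, which differed by 1.33, lies inside Adcy5 on the same strand, so its reads and those of Adcy5 may not be separable.

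Further separated genes outside the lists were Lrrc10b, a leucine-rich repeat gene, with a difference of 1.31, the protein kinase C gene Prkch with 0.85, the myelin tetraspanin Tspan2 with 0.62 and the urea cycle enzyme Ass1 with 0.56. Named after their values were seen, like Ass1, Olfm3 differed by 0.53, the GDNF receptor Gfra1 by 0.44, the imprinted gene Peg10 by 0.39 and striatin, the product of Strn, by 0.33. The gene that separated the sets downward was Snn, with 6329 to 6845 normalized counts in the 8 libraries against 6850.1 to 7779, a difference of -0.14 whose margin was narrow and was lost with TMM scaling.

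The 27 genes did not follow the cut alone. In WT fluoxetine female replicate 1, WT lithium female replicate 1, HT fluoxetine male replicate 3 and HT fluoxetine male replicate 1, which ranked next below the 8, 24, 23, 21 and 23 of the 27 genes lay above all 30 low-scoring libraries. Over the 21 libraries between, the mean of each of the 27 genes lay above that of the 30. Against all 51 other libraries, 8 genes still separated the 8 libraries, among them Cd4, Rgs9, Lrrc10b, Rarb, Rxrg, Pde1b and Adcy5.

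The 8 libraries differed among themselves. WT lithium male replicate 2 was the highest of the 8 for 24 of the 27 genes. Relative to the median of the 30 it held 6.47 times the Ppp1r1b, 9.22 times the Rgs9, 4.88 times the Penk and 3.64 times the Tac1. HT fluoxetine female replicate 1, the lowest-scoring of the 8, held 2.55 times the Ppp1r1b, 2.30 times the Rgs9, 1.53 times the Penk and 1.32 times the Tac1. Without WT lithium male replicate 2, the median of the signalling list was 0.50. The remaining 7 libraries separated the same 27 genes from the 30 and no others. Leaving out a library of the 8 can add separated genes but cannot undo a separation.

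Cholinergic markers, which label the large interneurons of the striatum and projection neurons of the basal forebrain, were also higher. The 3 measured genes had a median difference of 1.30: Chat, the acetylcholine synthesis enzyme, spanned 19.3 to 134 normalized counts in the 8 libraries and 4.93 to 26.8 in the 30, and Slc5a7, the choline transporter, 49.0 to 213 against 27.0 to 92.9. Both overlapped between the sets. Lhx8, a transcription factor of these neurons, was below the filter and had 0.802 to 35.2 normalized counts against 0 to 2.96.

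Further genes with large differences overlapped between the sets and were named after their values were seen. Nts, the neurotensin precursor, spanned 60.2 to 269 normalized counts in the 8 libraries and 9.81 to 77.3 in the 30, a difference of 2.26. Syndig1l differed by 1.84, Ecel1 by 1.47 and Slc10a4 by 1.67. Among the 34 genes with a difference of -1 or less, Kdm5d, Eif2s3y and Ddx3y are Y-linked, and males made up 3 of the 8 libraries and 14 of the 30. Several others in either direction are pseudogenes or members of near-identical families such as Fam205a, whose values are uncertain.

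Markers of myelinating oligodendrocytes, the glia that wrap axons, also differed between the sets. All 12 genes were higher in the 8 libraries, with a median difference of 0.62, and Mag and Ugt8a separated the sets. Mag, a myelin adhesion protein, spanned 4454 to 6989 normalized counts in the 8 libraries and 2194 to 4415 in the 30. Mbp, the myelin basic protein gene, spanned 64441 to 99947 against 33096 to 67697, a difference of 0.59. The mean level of the list in 7 of the 8 libraries lay above all 30. Oligodendrocyte precursor genes had a median of 0.21 over 8 genes, and Pdgfra, their defining receptor, differed by -0.05.

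Layers of the cortex moved unequally. Excitatory neuron genes had a median of 0.01 over 12 genes and layer genes 0.01 over 22, with none separated. Within the layer list, Cplx3, Ccn2 and Nxph4, which mark the deepest cortical layer next to the white matter, differed by 0.86, 0.63 and 0.65, and the layer 6 genes Hs3st4 and Tle4 by 0.44 and 0.38. Cux2 of the upper layers differed by -0.20 and Etv1 of layer 5 by -0.24. Nr4a2, a transcription factor of the claustrum and deep cortex, spanned 826 to 1139 normalized counts in the 8 libraries and 241 to 959 in the 30, a difference of 1.15, and the claustrum list of 4 genes had a median of 0.27.

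Olfactory bulb genes were lower on average, with all 5 below 0 and a median of -0.91, but their spread was wide in both sets. The median was -0.37 with the 6 highest-scoring libraries and -0.46 against all 51 others. Their mean log2 level ran from 5.07 to 9.33 in the 8 libraries and from 4.81 to 10.91 in the 30. For migrating neuroblasts 9 of 9 genes were below 0 (median -0.36), and for the meninges 8 of 8 (median -0.34). Septum genes had a median of -0.20 and dopamine neuron genes, of which Th is also made in the bulb, -0.29. Th spanned 88.8 to 602 normalized counts in the 8 libraries and 39.8 to 1933 in the 30. The lower levels were not particular to the 8, as the 21 libraries between were lower still. Their median log2 levels were 7.49 for bulb, 9.67 for neuroblast and 9.47 for meningeal genes. The medians were 8.01, 9.82 and 9.64 in the 8 and 8.64, 10.07 and 9.85 in the 30. Septum and dopamine neuron genes had the same order.

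Among the 8 libraries, 3 were low in bulb genes and high in immediate early genes, which neurons induce within minutes of activity. WT lithium male replicate 2, HT lithium male replicate 1 and HT fluoxetine female replicate 1 had mean log2 bulb levels of 5.14, 5.07 and 6.01 and immediate early levels of 10.14, 10.001 and 9.71. The other 5 libraries ran from 8.01 to 9.33 for bulb genes and from 8.73 to 8.93 for immediate early genes. Arc, a synaptic regulator and the gene of this list with the largest difference (0.78), had 7200, 6426 and 4940.3 normalized counts in the 3 and 892 to 1232 in the other 5, against a median of 980.4 in the 30. Over all 12 immediate early genes the median difference was 0.29, but it was 0.17 without WT lithium male replicate 2 and 0.18 without HT lithium male replicate 1, and no library of the 8 lay above all 30 in their mean level. Low bulb with high immediate early levels was not particular to the 8. WT fluoxetine female replicate 1, next below in rank, had bulb and immediate early levels of 5.80 and 9.66. WT lithium female replicate 1 followed with 4.88 and 9.95, whereas HT vehicle male replicate 4, also between, had 10.55 and 8.92. The median immediate early level was 9.56 in the libraries between, 8.87 in the 8 and 8.84 in the 30. The part of the myelin, bulb and immediate early levels in the striatal differences was not tested.

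**Figure D3:**
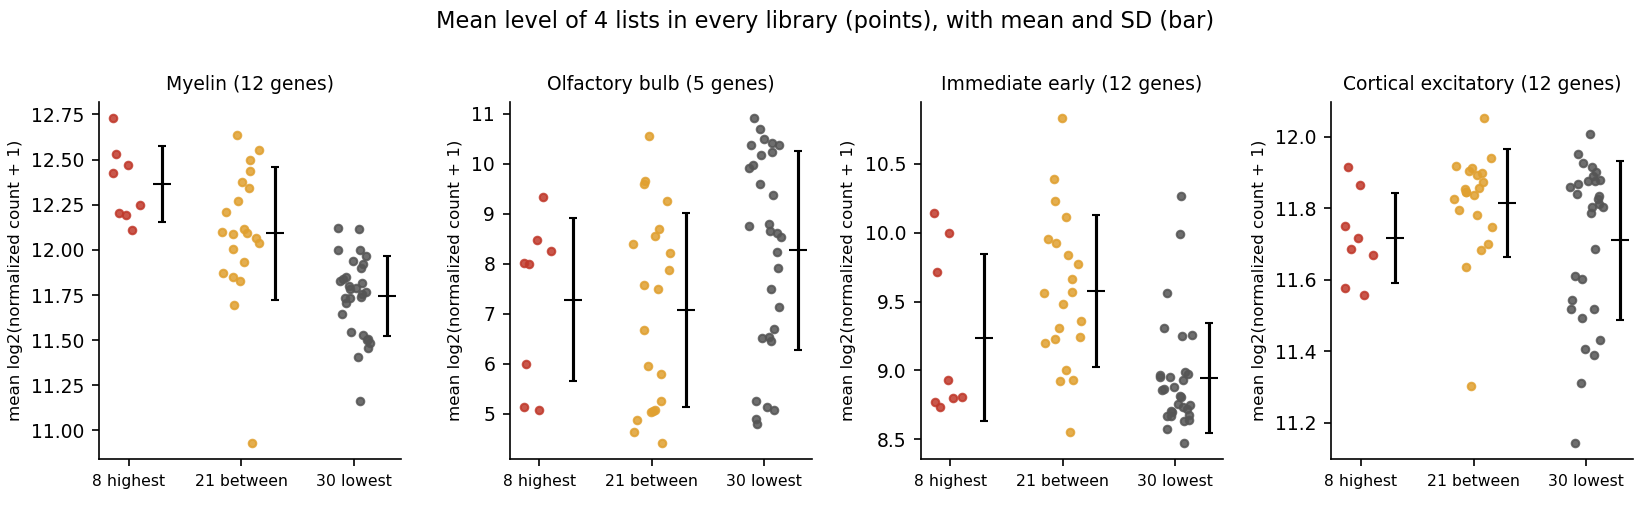
Mean log2(normalized count + 1) of 4 gene lists in every library (y axes), split into the 8 highest-scoring, 21 between and 30 lowest-scoring libraries; points are libraries and bars the mean with its SD. Myelin genes sit high in the 8 libraries, bulb and immediate early genes fall into 2 clusters of 3 and 5 libraries within the 8, and cortical excitatory genes overlap.

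Other cell types showed no separated gene. The medians were -0.03 for 10 astrocyte genes, -0.01 for 8 microglial genes, -0.04 for 8 endothelial and mural genes, 0.07 for 7 genes of GABA synthesis and transport, -0.13 for 11 interneuron genes and 0.11 for 7 thalamic genes. Of the hypothalamic markers 1 of 9 passed the filter, Pomc, with a difference of 0.03. Choroid plexus and ependymal genes had a median of -0.01 but went both ways: Clic6 differed by 1.52 and Ttr, the transthyretin gene that defines choroid plexus, by -1.57, with 1.76 to 9.08 normalized counts in the 8 libraries against 0 to 3501. Glutamate receptors and scaffolds had a median of -0.0011, ion channels 0.03 and housekeeping genes 0.04.

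**Figure D4:**
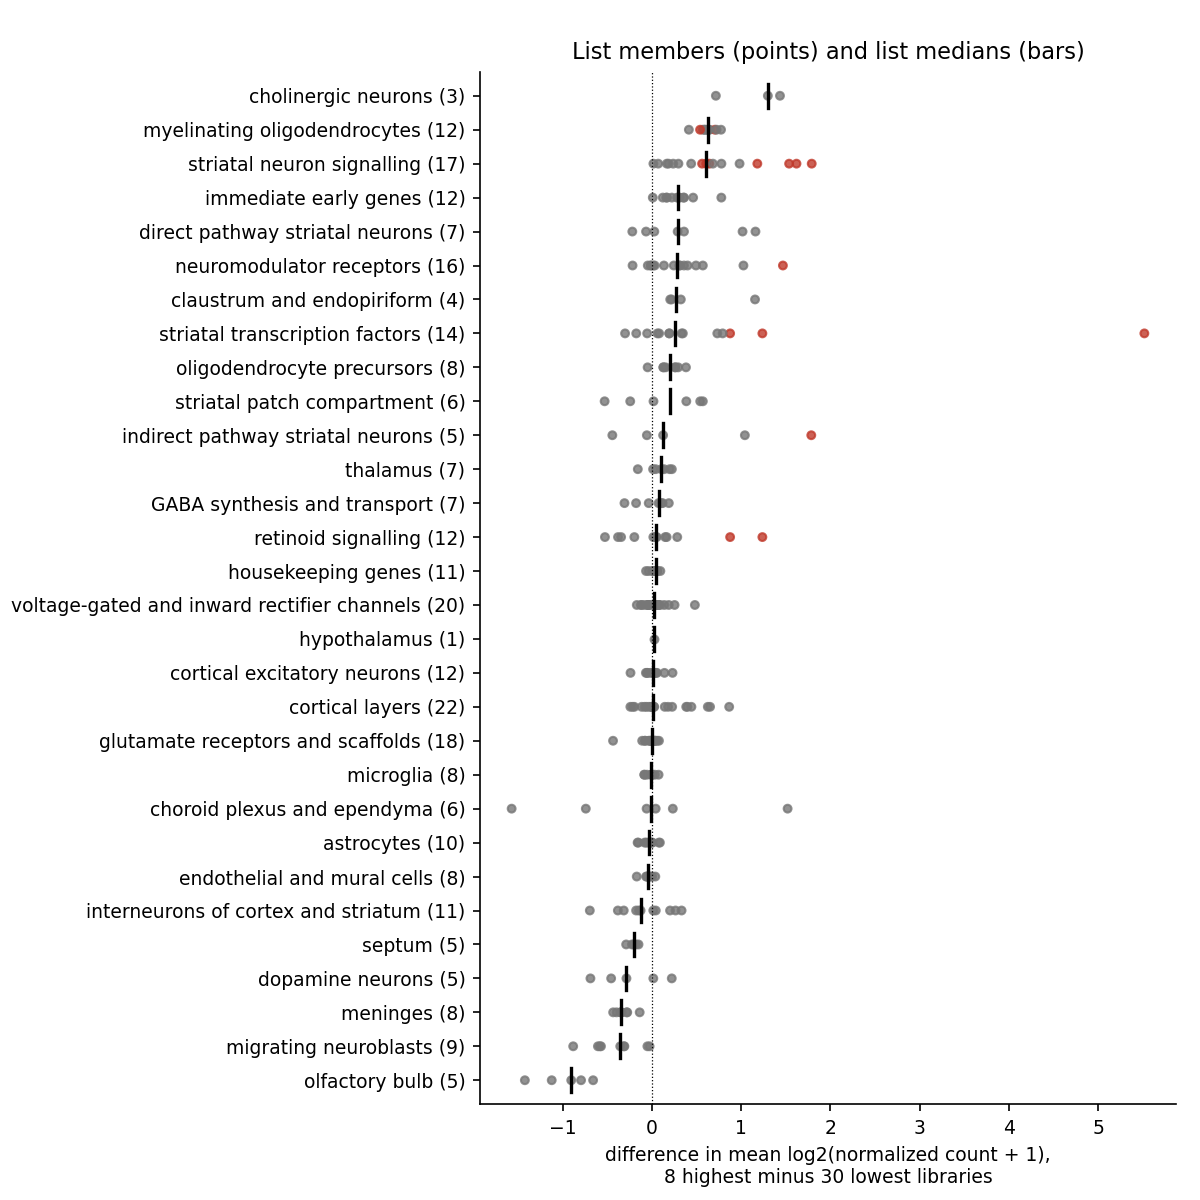
Difference in mean log2(normalized count + 1), 8 highest-scoring minus 30 lowest-scoring libraries (x axis), for the measured members of 30 lists (y axis, number measured in brackets); points are genes, red where the sets do not overlap, and bars are list medians. List medians run from 1.30 for cholinergic neurons to -0.91 for the olfactory bulb, and Six3 stands apart at 5.52.

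The study's own comparisons were then fitted with limma over all 59 libraries, without the 8 libraries, and with the score as a covariate, to see what the 8 libraries do to striatal genes. The lithium and fluoxetine comparisons share the vehicle libraries. For lithium against vehicle, averaged over genotype and sex, 742 of 16839 genes (4.41%) had an adjusted p under 0.05. Of the 49 striatal genes 1 rose and 1 fell, with a median log2 change of 0.05 against -0.00038 for all genes.

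Pde10a rose under lithium. It ran from 2463 to 10121 normalized counts with a median of 3039 in the 20 lithium libraries and from 1823 to 5972 with a median of 2275 in the 20 vehicle libraries, and the ranges overlapped. The log2 change was 0.47 ± 0.124 (SE; limma adjusted p = 0.0180). Without the 8 libraries it was 0.41 ± 0.0563 (limma adjusted p = 1.95e-05), with 2463 to 3356 normalized counts in the 16 remaining lithium libraries and 1823 to 2848 in 18 vehicle libraries. With the score as a covariate it was 0.36 ± 0.0727 (limma adjusted p = 0.0019). The 8 libraries were chosen for striatal levels, so the smaller SE and adjusted p in these later fits follow from the choice and are no added support. Dgkb fell by 0.10 ± 0.0318 (limma adjusted p = 0.0438), a call that was lost without the filter on low values and without trend and robust shrinkage.

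The other striatal genes followed in these comparisons did not pass the test under lithium. Rgs9 changed by 0.29 ± 0.216 (SE; limma adjusted p = 0.503) with all libraries and by 0.12 ± 0.102 (limma adjusted p = 0.568) without the 8. Ppp1r1b had 0.35 ± 0.207 and 0.22 ± 0.159, Penk 0.18 ± 0.154 and 0.10 ± 0.0967, and Tac1 0.17 ± 0.134 and 0.09 ± 0.0669, with all libraries and without the 8. The median SE over the 49 striatal genes was 0.0909 with all libraries, 0.0779 without the 8 and 0.0706 with the score as covariate, while over all genes it was 0.0512, 0.0566 and 0.0508. The 8 libraries were chosen for extreme levels of striatal genes, so a smaller spread of such genes without them follows from the choice and is no result. They held 4 lithium and 2 vehicle libraries, so lower lithium changes of such genes without them are tied to the choice as well.

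**Figure D5:**
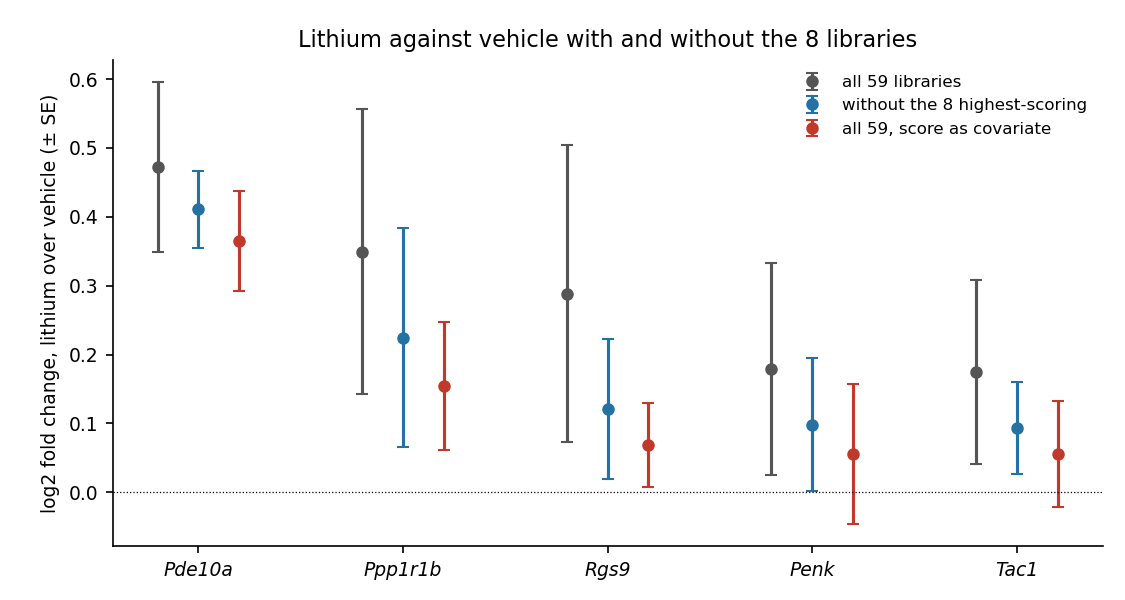
Log2 fold change of lithium over vehicle (y axis, points with SE) for 5 striatal genes (x axis), fitted with all 59 libraries, without the 8 highest-scoring and with the score as a covariate. All 5 genes lie nearer to 0 when the 8 libraries are left out, and Pde10a stays at 0.36 or above in the 3 fits. The 8 were chosen for striatal levels and held 4 lithium and 2 vehicle libraries, so this shift is tied to the choice and is no result.

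For fluoxetine against vehicle, 11 genes (0.0653%) passed and none of the 49 striatal genes did, with a median change of -0.02. Without the 8 libraries 1 gene passed, and limma gave 1069 of 16839 genes with an unadjusted p under 0.05 against 2009 with all libraries. Leaving out a single library gave 4 to 74 genes that passed, and the cause of these shifts was not tested. Pde10a changed by 0.17 ± 0.125 (SE; limma adjusted p = 0.609) with all libraries and by 0.24 ± 0.0572 (limma adjusted p = 0.228) without the 8.

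For HT-labelled against WT-labelled libraries, 1344 genes (7.98%) passed. Among the striatal genes Sfxn1, a mitochondrial serine transporter, fell by 0.09 ± 0.0184 (SE; limma adjusted p = 0.00097). It spanned 1388 to 1679 normalized counts in WT-labelled libraries (median 1593) and 1332 to 1699 in HT-labelled ones (median 1463), and the ranges overlapped. With the score as a covariate 1470 genes (8.73%) passed, and 5 of the 49 striatal genes fell, among them Gnal, Pde7b, Arpp21 and Sfxn1. Without the 8 libraries 1128 genes (6.7%) passed, and 3 of the 49 striatal genes did: Arpp21, Sfxn1 and Zfp503. Both shares are near those of all genes.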

How the data were processed

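The authors deposited 1 table of normalized counts, taken here as a signal: reads per gene divided by a normalization factor, not log-transformed. GRCm38, DESeq2 1.19.11, R 3.6.0 and Salmon 0.11.2 stand in the submitters' processing notes without role or order. Since these values are not whole counts, no count model was fitted, and the test planned for normalized values was used. Symbols were matched for 51285 of 51456 identifiers. Libraries were scored on the 3 marker genes, and sets were compared by mean log2(value + 1) with a mean of at least 10; a gene separated where the sets did not overlap. Label comparisons used limma 3.58.1 (R 4.3.3, trend and robust shrinkage, statmod 1.5.0) with a mean for each of 12 groups and Benjamini-Hochberg adjustment at 0.05, and 100000 permutations for the score (scipy 1.17.1). The scripts were tested on simulated data with known changes. The fold scale understates changes of low genes. Positions come from GENCODE M21. The members and the 30 lists were chosen with earlier results of these data known. By the naming rule, members of the striatal and cortical lists, the largest and smallest difference of other lists, the 15 separated genes with the largest difference in each direction and a mean of at least 50, and Chd8 and a few striatal genes in label comparisons could be named; some of these genes are not reported here. Other members of the non-striatal lists, such as their defining markers, and the called striatal genes of label comparisons were named after their values were seen. Alternatives were other scalings, filters, pseudocounts, set sizes and fits, and leaving out each library.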

Additional observations from a re-analysis of the deposited data

Results flagged for a closer look

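In each label group of 4 or 5 libraries, and in the 8 high-scoring libraries, the highest and lowest values were checked for a wide gap. The gap was set against the range by Dixon's 95% limit, which chance passes in about 1 in 20 groups. Of 22 groups checked, 6 had such a value. For the striatal score these were WT lithium male replicate 2 at 10.4 against 6.44 to 6.94 in the rest of its group, HT vehicle female replicate 3 at 9.42 against 6.19 to 6.54, WT vehicle female replicate 5 at 8.94 against 6.40 to 6.63, WT fluoxetine female replicate 1 at 8.10 against 6.12 to 6.29, and WT lithium female replicate 1 at 8.05 against 6.17 to 6.61. The score is the value that chose the 8 libraries, so these gaps describe the choice and are no further result. Within the 8, the mean log2 level of the striatal signalling list was 12.5 in WT lithium male replicate 2 and 11.5 to 11.9 in the other 7.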

How the results depend on the processing

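Of the 27 genes separated upward, 27 remained with TMM factors, 22 with a mean of at least 50 and 21 with the 10 highest-scoring libraries. All 27 also remained with a pseudocount of 0.5 and without each of the 8 libraries (27 to 40 genes in all). Neither of these changes can undo a separation, and nor can a smaller set, so that the 27 remained there is no result. The 6 highest-scoring libraries gave 49 upward and 3 downward, the 20 lowest-scoring 66 and 5, and all 51 others 8 and 0. TMM factors gave 0 downward, and leaving out a library 1 to 2. Differences of at least 1 upward numbered 122 without a filter, 22 with a mean of at least 50 and 44 to 56 without a library. Those of -1 or less numbered 71, 15 and 19 to 64, and 52 with the 10 highest-scoring libraries and 17 against all 51 others; the lowest, 19, came without HT fluoxetine female replicate 1 and the highest, 64, without HT lithium male replicate 4. The female minus male difference of the score was -3.59 in ranks.

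Genes passing for lithium numbered 483 without a filter and 561 to 881 without a library, for fluoxetine 4 without a filter, 7 without trend and robust shrinkage, 1 without the 8 libraries and 4 to 74 without a library (74 without HT vehicle male replicate 1, 4 without WT fluoxetine male replicate 1), and for genotype 877 without a filter and 1097 to 1677 without a library. With the replicate number as a block, 1030, 41 and 1828 genes passed for lithium, fluoxetine and genotype, against 742, 11 and 1344 without it. The correlations of 68 same-numbered pairs ran from -0.370 to 0.553 (median 0.043). Of these pairs 29 correlated over 0.1 and 18 correlated best with their own number. The labels do not say what same-numbered libraries share, and this was not tested. For fluoxetine, Penk was 0.034 and Tac1 0.047 without the 8 libraries, Rgs9 was -0.043 with the score as covariate, and leaving out a library gave -0.062 to 0.056 for Penk, -0.061 to 0.059 for Tac1 and -0.018 to 0.15 for Rgs9. For genotype, without the 8 libraries and with the covariate, Tac1 was -0.018 and -0.037, Ppp1r1b -0.11 and -0.11, and Pde10a -0.0086 and -0.056. Leaving out a library gave -0.00037 to 0.13 for Ppp1r1b and -0.0089 to 0.10 for Pde10a. Every reversal was of a change that did not pass the test. The cause of these shifts was not tested. Estimated depth ran from 25.8 to 36.9 M reads per library, and the levels of Six3 in the 30 low-scoring libraries rest on a few reads each. The olfactory bulb median ran from -1.23 with the 10 highest-scoring libraries to -0.37 with the 6 highest-scoring.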
